A study of Mus musculus with 8 samples.

Results

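Oocytes that received RNA for a phosphosite mutant of BTG4 were compared with oocytes that received RNA for the wild-type protein, across all 16448 genes that the tables of the injected oocytes list. The 4 libraries are those whose treatment label is Btg4wt or Btg4tm, 2 of each, out of 8 libraries in the series. The other 4 hold uninjected GV and MII oocytes and enter here through the list of genes in their tables and, in 1 alternative fit, through their spread. The study asked what phosphorylation of BTG4 at T145, S146 and S147 does to the transcriptome of the maturing oocyte, with a mutant (Btg4tm, triple mutation) in which all these residues are alanine. Both groups came from female ICR mice of 6 weeks that had been superovulated. Their fully grown GV oocytes were injected with capped RNA for Myc-tagged BTG4, wild-type or mutant, and collected at MII after culture. These oocytes kept their own *Btg4* gene, so neither group is a knockout. The study notes that injected BTG4 of either form seemed to lower the endogenous protein, and how much of it these oocytes held is not known here.

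Each library was made from 15 pooled oocytes without their zona pellucida. The labels speak of 3 samples per group, of which 2 were analysed here, and do not say whether the 2 came from separate injections or mice. The p-values therefore measure the spread between libraries, which may be technical. RNA was reverse transcribed from an oligo(dT) primer with the Smart-seq2 method, so the values depend on the poly(A) tail of an RNA as well as on its number of molecules. They are TPM, a share of each library per unit of gene length, and a share cannot tell fewer molecules of one RNA from more of all others. In pooled oocytes, less of an RNA in each oocyte and fewer oocytes that hold it cannot be told apart either. The sequencing depth behind them is unknown, and the injected and endogenous *Btg4* RNA are counted together.

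BTG4 is an oocyte protein of the BTG/TOB family that brings the CCR4-NOT deadenylase to mRNAs. During meiotic maturation the oocyte does not transcribe, and stored maternal mRNAs are translated or lose their poly(A) tails and are degraded. Loss of BTG4 is known to stabilise maternal mRNAs and to stop the embryo early.

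The mutated codons are shown because they are the designed difference between the injected RNAs. They lie in exon 6 of 7 of the *Btg4* transcript ENSMUST00000213680.1, inside the coding sequence of 250 codons, at chr9:51117949-51117957 on the plus strand of GRCm38. The lines below give the reference sequence of GENCODE M21 and the forward mutagenesis primer of the study over the same 35 bases, with the codons of T145, S146 and S147 in capitals.
reference: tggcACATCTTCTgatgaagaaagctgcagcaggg
mutant primer: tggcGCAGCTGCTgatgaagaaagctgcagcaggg
The primer differs from the reference by A5G, T8G and T11G, counted from its 5′ end, which gives T145A, S146A and S147A. The other 32 bases were identical.

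*Btg4* RNA was at 5029 and 5313 scaled TPM in the 2 Btg4wt libraries and at 3559 and 3921 in the 2 Btg4tm libraries. Both values of the mutant lay below both values of the wild type (log2 fold change -0.47, SE 0.12, adjusted p = 0.0234), a difference under the fold required for a call. Its direction depended on the scaling, because the log2 fold change was 0.63 (adjusted p = 0.0987) when libraries were scaled to the summed mitochondrially encoded RNAs (the mitochondrial scaling). Where a pair of values is set against another pair below, the Btg4wt libraries come first.

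Expression was compared on log2(scaled TPM + 1) with limma, over 13318 genes that reached 1 TPM in 2 or more of the 4 libraries. Calls required an adjusted p-value (Benjamini-Hochberg) under 0.05 together with an absolute log2 fold change, Btg4tm minus Btg4wt, of more than 1. For genes close to 1 TPM the pseudocount makes these fold changes smaller than the ratio of the levels. In Btg4tm oocytes 2531 genes (19.0%) were higher and 1132 (8.50%) were lower, and 9655 were not called. Of the genes tested, 607 reached the filter only through the Btg4tm libraries and 277 only through the Btg4wt libraries. Such genes were bound to differ in that direction, and these counts and shares include them. Without the filter, 2518 of 16448 genes were higher and 1117 lower. Rises were also larger than falls, with a median log2 fold change of 1.75 among the higher and -1.28 among the lower genes. A log2 fold change beyond 3 was reached by 318 higher genes and 2 lower genes. The 2 groups did not overlap for any called gene. Over all genes tested, both Btg4tm values lay above both Btg4wt values for 37.6% and below them for 38.1%, so absence of overlap alone says little. With 2 libraries against 2, an exact permutation test of a single gene cannot go below p = 0.333 (two-sided). The higher genes held 6.19% and 5.17% of all TPM in the Btg4wt libraries and 22.3% and 22.9% in the Btg4tm libraries, while the lower genes went from 12.1% and 11.8% to 4.05% and 5.06%.

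**Figure D1:**
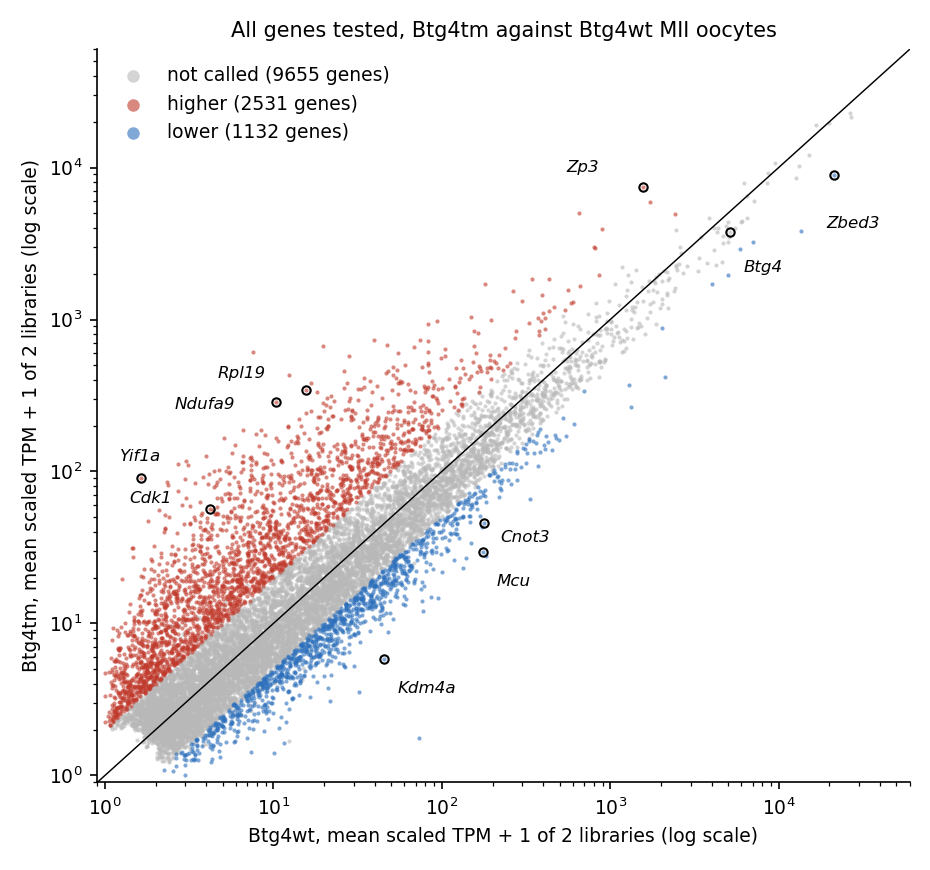
Mean scaled TPM + 1 of the 2 Btg4tm libraries (vertical, log scale) against that of the 2 Btg4wt libraries (horizontal, log scale), 1 point a gene tested, with called genes in red (2531 higher) and blue (1132 lower), the line of equal values, and a few genes ringed. The red points reach farther from the line than the blue ones, and Btg4 lies close to it.

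Replicate libraries correlated across genes with Pearson r of 0.984 (Btg4wt) and 0.981 (Btg4tm), and libraries of different groups with r of 0.864 to 0.877. The median of all genes was at a log2 fold change of -0.01. It moved to -0.20 with quantile normalization and to 0.91 with the scaling to mitochondrially encoded RNAs, which gave 2110 higher and 1811 lower genes in the first case and 6064 higher and 86 lower genes in the second. All 2531 higher genes and 80 of the 1132 lower genes kept their call under the mitochondrial scaling. That scaling raises the log2 fold change of nearly every gene, so the kept higher calls are no added support. A direction given below is therefore one relative to the bulk of the genes. All 10 oocyte markers checked were listed, 3 of them called higher (*Zp1*, *Zp2* and *Zp3*) and 0 lower, with a summed 19048 and 17884 against 26223 and 25335 scaled TPM. Of 18 cumulus and granulosa cell markers 8 were listed, with a summed 45.6 and 46.7 in Btg4wt and 40.2 and 36.6 scaled TPM in Btg4tm libraries. Of the 4 tested, *Inha*, an inhibin subunit, was called higher at 1.83 and 1.05 against 9.39 and 4.99 (log2 fold change 1.71, SE 0.34, adjusted p = 0.00820), and the other 3 were not called. A further list of such markers, which held *Serpine2*, had 6 genes tested, with 1 called higher and 0 lower. Its sums were larger, 457 and 515 against 381 and 374 scaled TPM. Of 7 blood and immune markers only *Cd68* was listed, at 4.60 and 3.41 against 6.78 and 7.77 scaled TPM. The defining genes *Amh*, *Foxl2*, *Has2*, *Ptprc* and the globins were not in the tables.

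The genes were then read by cell function, in 54 lists. Each count of members called is to be read beside the 19.0% higher and 8.50% lower of all genes tested. The 4 lists with the highest medians were the cytosolic ribosomal proteins, the nuclear-encoded subunits of the respiratory chain and ATP synthase, the mitochondrial ribosomal proteins and the mitochondrial import machinery. The lowest medians were those of the mitochondrially encoded RNAs, the ubiquitin-specific proteases, the decapping and decay factors and the lysine demethylases with Polycomb proteins. Between these ends lay functions in which about as many members rose as fell, among them splicing, the general transcription factors with Mediator, and the anaphase-promoting complex.

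**Figure D2:**
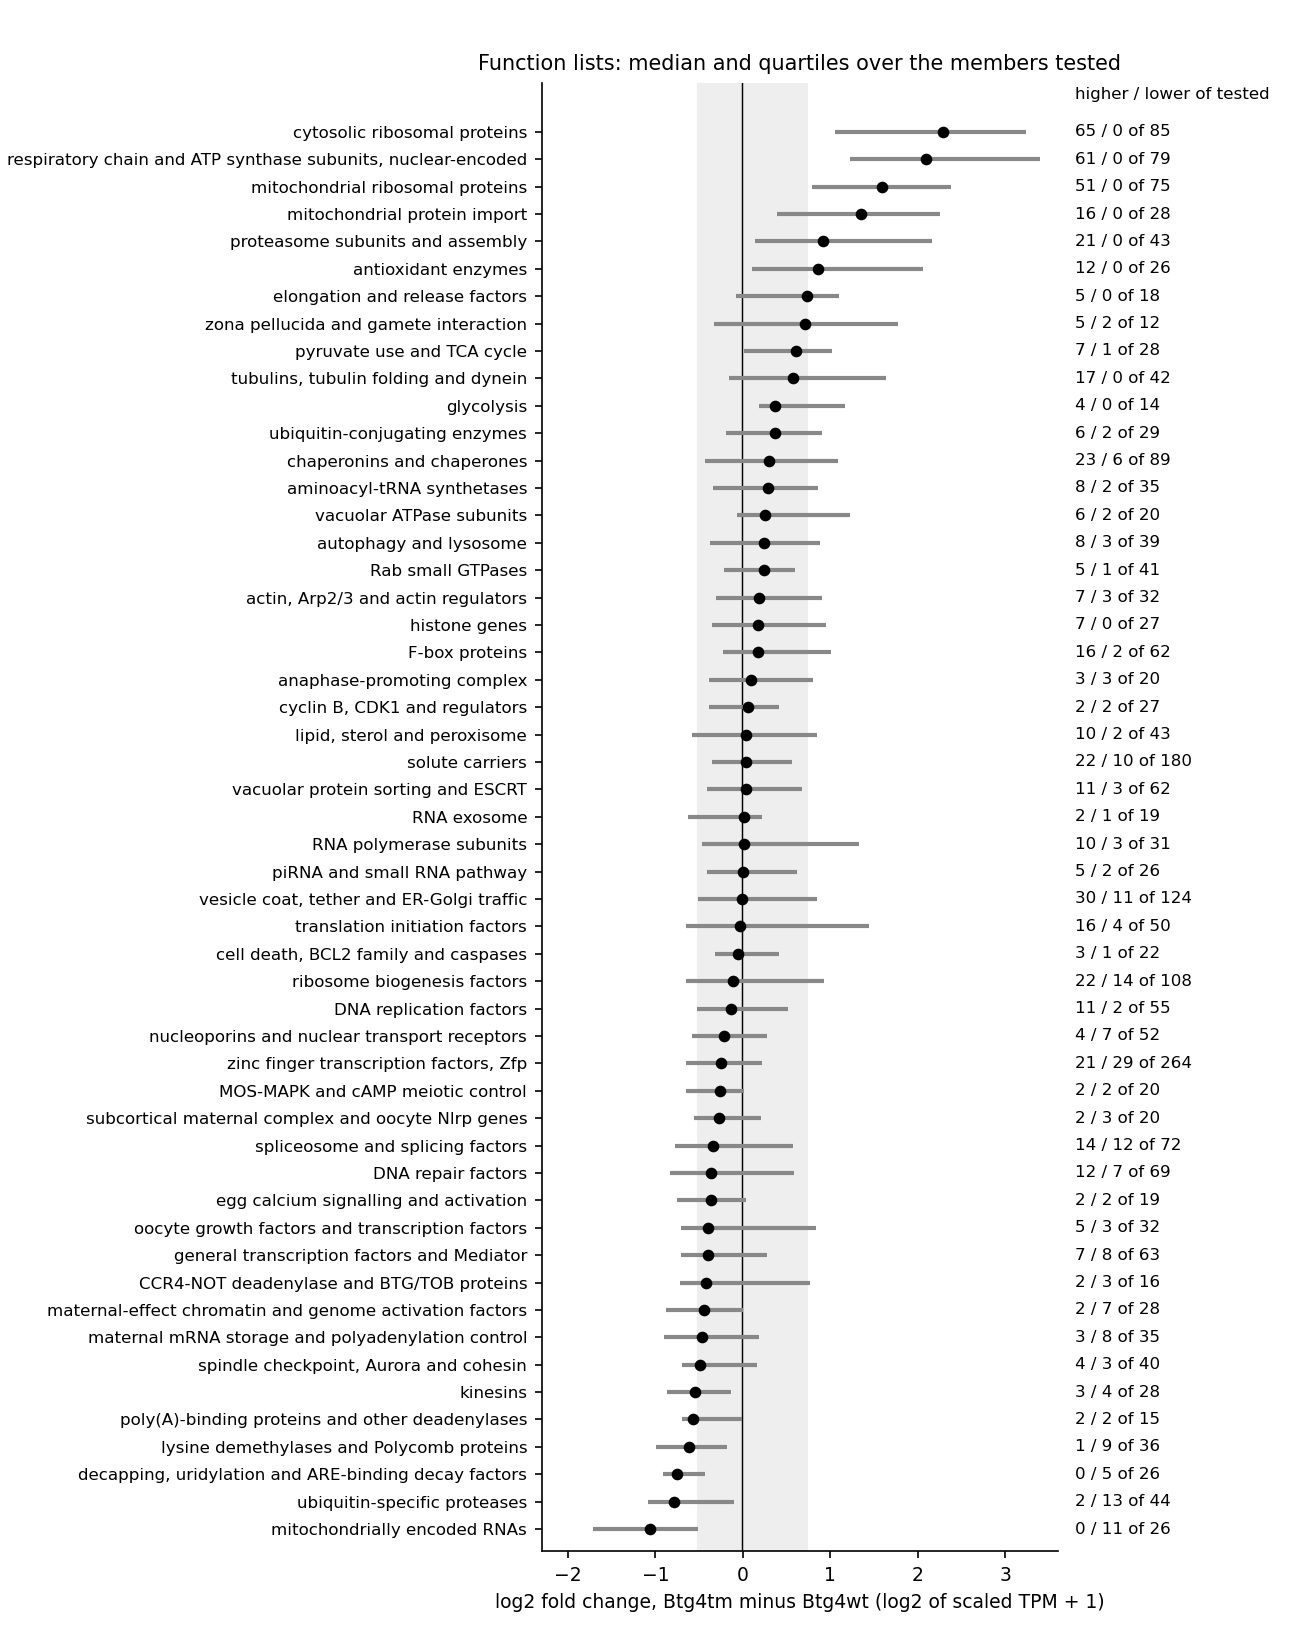
Median (point) and quartiles (bar) of the log2 fold change, Btg4tm minus Btg4wt, for the function lists with at least 10 genes tested, beside the number of members called higher and lower. The grey band gives the quartiles of all genes tested and the line marks their median (-0.009). The cytosolic ribosomal proteins stand at 2.28 and the mitochondrially encoded RNAs at -1.06; under the mitochondrial scaling the median of all genes is 0.91, and the lists below the line have medians above 0.

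Cytosolic ribosomal proteins, the protein part of the ribosome that translates nuclear mRNAs, rose in Btg4tm oocytes: 65 of 85 tested were called higher and 0 lower, a share of 76.5% against 19.0% of all genes. Their median log2 fold change was 2.28, and it stayed between 2.15 and 3.24 under every scaling. Of the large subunit proteins 39 of 51 were called higher (median 2.37) and of the small subunit proteins 26 of 34 (median 2.17). *Rpl19*, a large subunit protein, was at 15.1 and 14.0 scaled TPM in the Btg4wt libraries and at 311 and 370 in the Btg4tm libraries (log2 fold change 4.45, SE 0.14, adjusted p = 8.39e-05). *Rpl5*, which binds 5S rRNA in the large subunit, went from 139 and 69.1 to 601 and 546 scaled TPM (log2 fold change 2.53, SE 0.31, adjusted p = 0.00139). Both genes were apart in every library, although the Btg4wt values of *Rpl5* differed from each other as well. The members that did not pass included abundant ones. *Rps27l*, the most abundant member, was at 1097 and 1310 in Btg4wt and 623 and 829 scaled TPM in Btg4tm libraries, a log2 fold change of -0.74 that turned to 0.36 under the mitochondrial scaling. *Rpl4* was at 197 and 195 against 343 and 343 (log2 fold change 0.80, SE 0.11, adjusted p = 0.00194). In sum over the list, the TPM went from 4288 and 4223 to 10043 and 12343. Ribosomal protein genes have many processed pseudogenes, and reads that map equally to gene and copy were dropped upstream, so the level of a single member is uncertain.

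The RNAs of the proteins that run translation did not move as one. Of 18 elongation and release factors 5 were called higher and 0 lower (median 0.73). The 27.8% higher is, in so short a list, near the 19.0% of all genes. The count of 5 was 4 with a filter at 5 TPM and 13 under the mitochondrial scaling. The 5 were Eef1a1, which delivers aminoacyl-tRNA to the ribosome, its exchange factor subunits *Eef1d* and *Eef1g*, the selenocysteine factor *Eefsec*, and the mitochondrial release factor *Mtrf1l*. *Eef1d* had the largest rise, from 3.59 and 4.37 to 60.0 and 65.7 scaled TPM (log2 fold change 3.68, SE 0.17, adjusted p = 9.76e-05). *Mtrf1l* was near the detection limit, at 0.248 and 0.511 against 2.61 and 1.52. Its log2 fold change was 1.0 without replicate 1 of Btg4wt and 0.88 without replicate 1 of Btg4tm. It passed the filter only through the Btg4tm libraries, so it was bound to differ and adds nothing to the count. Initiation factors were split, with 16 of 50 higher (32% against 19.0% of all genes) and 4 lower (8%, near the 8.50% of all genes) and a median of -0.03. Among the 14 subunits of eIF3, the scaffold of the initiation complex, 7 rose and 0 fell, led by *Eif3g* at 23.3 and 16.8 against 197 and 202 (log2 fold change 3.27, SE 0.18, adjusted p = 0.000124). Among the 12 eIF4 factors, which bind the mRNA cap and unwind the leader, 3 rose and 3 fell. The falls were *Eif4e1b*, the cap-binding protein of oocytes, the helicase *Eif4a1* and the scaffold *Eif4g1*. Under the mitochondrial scaling 1 eIF4 factor was called lower, and *Eif4a1* (-0.58) and *Eif4g1* (-0.096) were not. *Eif4e1b* went from 337 and 327 to 45.4 and 84.8 scaled TPM (log2 fold change -2.40, SE 0.28, adjusted p = 0.00117), and the somatic cap-binding gene *Eif4e* from 126 and 108 to 209 and 191, below the fold required (log2 fold change 0.77, SE 0.13, adjusted p = 0.00508).

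Nuclear-encoded respiratory subunits and the RNAs of the mitochondrial genome went different ways, but most of the falls were in tRNAs and rRNAs. Nuclear-encoded subunits of the respiratory complexes and of ATP synthase were called higher in 61 of 79 cases and lower in 0 (77.2%, median 2.09), and under the other scalings the median was 1.89 to 3.08. RNAs encoded in the mitochondrial genome itself were called higher in 0 and lower in 11 of 26 cases (42.3% against 8.50% of all genes, median -1.06). Of these falls 7 were in tRNAs and 2 in rRNAs. Of the mRNAs, which encode respiratory subunits, 2 were called lower and 9 were not called (median -0.66). Under the mitochondrial scaling the median of the mRNAs was 0.44 and 0 were lower. The median of all 26 RNAs was the same with quantile normalization and was 0.03, by construction, when they set the scale. The count of 11 was 6 without replicate 1 of Btg4wt and 5 under the mitochondrial scaling.

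Every respiratory complex took part on the nuclear side. Complex I, which oxidises NADH, had 29 of 37 subunits higher (median 2.39). *Ndufa9*, one of them, was at 9.80 and 8.90 in Btg4wt and 266 and 302 scaled TPM in Btg4tm libraries (log2 fold change 4.78, SE 0.14, adjusted p = 8.39e-05), and *Ndufa2* at 47.3 and 30.4 against 635 and 840 (log2 fold change 4.23, SE 0.24, adjusted p = 0.000136). Neither gene came close to an overlap between the groups. For complex II, succinate dehydrogenase, the iron-sulfur subunit *Sdhb* and the membrane anchor *Sdhd* rose and the other 2 subunits were not called. Complex III had 8 of 9 and ATP synthase 15 of 17 subunits higher, with medians of 2.25 and 2.04. Complex IV, cytochrome oxidase, had 6 of 11. In it, *Cox4i1* went from 32.0 and 29.6 to 299 and 397 scaled TPM (log2 fold change 3.44, SE 0.17, adjusted p = 0.000104), whereas *Cox8a*, its most abundant nuclear subunit, was at 843 and 929 against 351 and 619, a log2 fold change of -0.92 that did not pass, was called without replicate 2 of Btg4tm (-1.33) and was 0.17 under the mitochondrial scaling. The catalytic subunit of ATP synthase, *Atp5b*, was not called either, at 250 and 254 against 221 and 228, while the small subunit *Atp5j2* had 4.85 and 5.04 against 118 and 180 (log2 fold change 4.63, SE 0.22, adjusted p = 0.000101).

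On the mitochondrial side, both ribosomal RNAs were called lower. The large one, *mt-Rnr2*, was at 4804 and 5243 scaled TPM in Btg4wt and 1511 and 2414 in Btg4tm libraries (log2 fold change -1.39, SE 0.23, adjusted p = 0.00405), and the small one, *mt-Rnr1*, at 1234 and 1352 against 271 and 465 (log2 fold change -1.86, SE 0.25, adjusted p = 0.00196). Both also differed between the Btg4tm libraries, with replicate 1 the lower, and neither was called under the mitochondrial scaling (-0.30 and -0.77). Of 11 mitochondrial mRNAs, *mt-Nd1* and *mt-Nd5*, subunits of complex I, were called lower, each lost without replicate 1 of either group (values from -1.0 to -0.97 for both). *mt-Co1*, a core subunit of cytochrome oxidase, was at 1772 and 1425 against 703 and 908, and *mt-Cytb* of complex III at 3747 and 2895 against 1959 and 2223, below the fold required and of the other sign under the mitochondrial scaling (0.10 and 0.44). *mt-Co1* was called lower without replicate 2 of Btg4wt (-1.15) or of Btg4tm (-1.18). Of 13 tRNAs 7 were called lower, led by *mt-Tt* at 147 and 130 against 15.9 and 35.9 (log2 fold change -2.48, SE 0.35, adjusted p = 0.00237). These tRNAs are shorter than a sequencing fragment, so their TPM are uncertain.

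The ribosomal proteins of mitochondria and the import machinery went with the nuclear-encoded subunits. Mitochondrial ribosomal proteins were higher in 51 of 75 cases and lower in 0 (median 1.59), with 36 of 48 in the large and 15 of 27 in the small subunit. *Mrpl55* was at 5.37 and 5.92 against 154 and 220 scaled TPM (log2 fold change 4.80, SE 0.20, adjusted p = 9.06e-05). Import had 16 of 28 higher and 0 lower (median 1.35). In the outer membrane translocase, the pore *Tomm40* and its partners *Tomm20*, *Tomm22* and *Tomm7* rose by log2 fold changes of 2.23 to 2.87, and in the inner membrane the small chaperone *Timm13* went from 2.45 and 0.956 to 60.5 and 87.0 (log2 fold change 4.82, SE 0.32, adjusted p = 0.000216). Against this run, *Lars2*, the leucyl-tRNA synthetase of mitochondria, fell from 153 and 113 to 19.7 and 24.3 (log2 fold change -2.53, SE 0.19, adjusted p = 0.000317), and *Mcu*, the pore of the calcium uniporter, from 159 and 188 to 28.7 and 28.2 (log2 fold change -2.57, SE 0.14, adjusted p = 0.000124). Both kept the call under the mitochondrial scaling. In the citric acid cycle and pyruvate use, 7 of 28 genes were higher (25% against 19.0% of all genes) and 1 lower (median 0.61), with 4 higher after quantile normalization and 21 under the mitochondrial scaling. *Mdh2*, mitochondrial malate dehydrogenase, rose from 11.4 and 7.32 to 166 and 165 (log2 fold change 4.03, SE 0.21, adjusted p = 0.000124), and *Ogdh*, of the oxoglutarate dehydrogenase complex, fell from 85.1 and 87.1 to 26.6 and 29.5 (log2 fold change -1.58, SE 0.13, adjusted p = 0.000409). The fall of *Ogdh* was not called under the mitochondrial scaling.

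**Figure D3:**
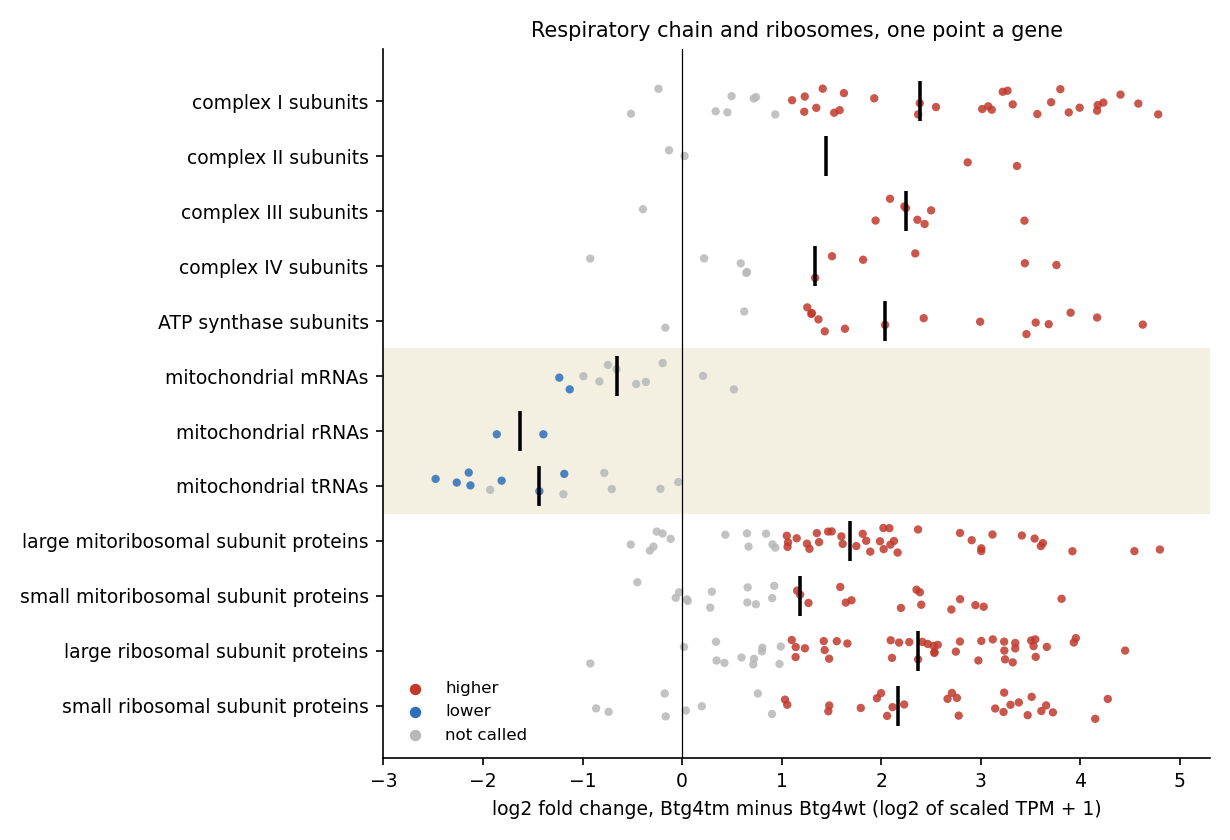
Log2 fold change, Btg4tm minus Btg4wt, of each gene tested (1 point a gene, coloured by its call, with the median of a group as a bar) for the nuclear-encoded respiratory complexes, the mitochondrially encoded RNAs (shaded) and the mitochondrial and cytosolic ribosomes. Medians of the nuclear-encoded groups lie between 1.19 and 2.39, and those of the shaded groups between -1.63 and -0.66; the shaded list as a whole is at 0.03 under the scaling that it sets.

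Among antioxidant enzymes 12 of 26 were higher and 0 lower (median 0.86). *Sod1*, cytosolic superoxide dismutase, was at 58.8 and 42.2 in Btg4wt and 363 and 496 scaled TPM in Btg4tm libraries (log2 fold change 3.07, SE 0.22, adjusted p = 0.000248), and *Gpx4*, which reduces lipid peroxides, at 11.2 and 5.11 against 101 and 113 (log2 fold change 3.64, SE 0.32, adjusted p = 0.000482). The mitochondrial glutaredoxin *Glrx5*, needed for iron-sulfur clusters, rose from 20.3 and 19.5 to 297 and 313 (log2 fold change 3.87, SE 0.12, adjusted p = 8.39e-05). The mitochondrial peroxiredoxins *Prdx3* and *Prdx5* rose too, by 2.70 and 2.80, while the most abundant peroxiredoxin, *Prdx1*, was at 2005 and 2048 against 1122 and 1399 and was not called, with a log2 fold change of -0.69 that was 0.40 under the mitochondrial scaling. Glycolysis had 4 of 14 higher (28.6%, which in so short a list is near the 19.0% of all genes) and 0 lower, with *Tpi1*, triosephosphate isomerase, from 4.79 and 3.25 to 41.0 and 48.4 (log2 fold change 3.20, SE 0.22, adjusted p = 0.000224).

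Protein turnover was read by branch. Of 43 proteasome genes 21 were higher and 0 lower (48.8%, median 0.91). The ATPases of the regulatory particle, which unfold substrates, rose in 5 of 6 cases and the core particle in 7 of 15. *Psmb1* of the core was at 8.93 and 6.04 against 184 and 191 scaled TPM (log2 fold change 4.49, SE 0.19, adjusted p = 9.06e-05), and the ATPase *Psmc2* at 9.85 and 8.17 against 113 and 110 (log2 fold change 3.50, SE 0.15, adjusted p = 9.06e-05). Ubiquitin itself went the same way, with *Ubb* at 1774 and 1663 against 5827 and 6005 (log2 fold change 1.78, SE 0.12, adjusted p = 0.000204). F-box proteins, which select substrates for SCF ubiquitin ligases, were higher in 16 of 62 cases and lower in 2 (25.8%, near the 19.0% of all genes), with a median of 0.17 that was -0.02 after quantile normalization. Some of the rises were in the Fbxw family that oocytes express. *Fbxw15* went from 957 and 831 to 4033 and 3859 (log2 fold change 2.14, SE 0.12, adjusted p = 0.000144) and *Fbxw13* from 90.1 and 73.3 to 497 and 543 (log2 fold change 2.66, SE 0.14, adjusted p = 0.000124). *Fbxw18*, more abundant than these, was at 2546 and 2296 against 5320 and 4578 (log2 fold change 1.03, SE 0.14, adjusted p = 0.00185), a call lost without replicate 2 of Btg4wt (0.95) or replicate 1 of Btg4tm (0.92). Copies in this family are similar, and reads that fit several were dropped upstream.

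Ubiquitin-specific proteases, which take ubiquitin off, had 13 of 44 members lower, 2 higher and 29 not called (29.5% lower against 8.50% of all genes), with a median of -0.78, which was 0.19 under the mitochondrial scaling, where all genes had 0.91 and 0 of the falls were called. *Usp46*, the most abundant of them, was at 359 and 367 in Btg4wt and 131 and 175 scaled TPM in Btg4tm libraries (log2 fold change -1.25, SE 0.16, adjusted p = 0.00168). *Usp7*, which acts on MDM2, went from 268 and 241 to 95.1 and 112 (log2 fold change -1.29, SE 0.14, adjusted p = 0.000846) and *Usp9x* from 217 and 207 to 81.9 and 101 (log2 fold change -1.21, SE 0.14, adjusted p = 0.00125). The exceptions were *Usp4*, called higher by 1.15, and *Usp39*, a splicing protein without protease activity, which rose from 17.6 and 22.0 to 66.7 and 88.4 (log2 fold change 1.91, SE 0.19, adjusted p = 0.000778). The anaphase-promoting complex, the ligase that ends meiosis II arrest, had 3 of 20 higher and 3 lower. Its chain-elongating enzyme *Ube2s* fell from 161 and 173 to 47.3 and 53.2 (log2 fold change -1.72, SE 0.13, adjusted p = 0.000295) and its subunit *Cdc27* from 214 and 216 to 89.1 and 95.5, whereas *Anapc5*, *Anapc15* and the activator *Fzr1* rose. Under the mitochondrial scaling neither fall was called.

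The RNAs of the proteins that BTG4 works with were read next. Of 16 CCR4-NOT subunits and BTG/TOB proteins, 3 were called lower and 2 higher (median -0.43, or 0.65 under the mitochondrial scaling). *Cnot3*, a subunit of the complex's core, had the largest fall, from 157 and 196 to 37.6 and 52.3 scaled TPM (log2 fold change -1.96, SE 0.20, adjusted p = 0.000768). The scaffold *Cnot1* fell from 17.5 and 15.5 to 6.12 and 6.50 (log2 fold change -1.26, SE 0.18, adjusted p = 0.00251) and the deadenylase *Cnot6l* from 80.2 and 71.9 to 34.0 and 36.4 (log2 fold change -1.09, SE 0.13, adjusted p = 0.00148). None of these kept the call under the mitochondrial scaling. Catalytic subunits did not go one way, since *Cnot7*, to which BTG4 binds, was at 476 and 516 against 390 and 340 (log2 fold change -0.44, or 0.65 under the mitochondrial scaling) and its paralog *Cnot8* at 136 and 146 against 281 and 227 (0.84). Neither passed the call. *Tob1* rose from 5.12 and 4.22 to 15.7 and 14.5 (log2 fold change 1.51, SE 0.19, adjusted p = 0.00168). *Cnot11* rose from 84.8 and 80.9 to 172 and 166 (log2 fold change 1.02, SE 0.12, adjusted p = 0.00109), a call lost without replicate 2 of Btg4wt (0.99) or replicate 1 of Btg4tm (1.0) and after quantile normalization (0.80).

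Poly(A)-binding proteins and the remaining deadenylases, 15 genes, had 2 higher and 2 lower and a median of -0.57, which was 0.52 under the mitochondrial scaling. *Paip2*, which displaces poly(A)-binding protein from the tail, had the largest change, from 77.8 and 41.8 to 533 and 469 (log2 fold change 3.11, SE 0.28, adjusted p = 0.000514). The oocyte poly(A)-binding protein *Pabpc1l* rose from 62.1 and 41.1 to 114 and 98.4 (log2 fold change 1.05, SE 0.21, adjusted p = 0.00923), a call lost without replicate 2 of Btg4wt (0.76) or replicate 1 of Btg4tm (0.95) and after quantile normalization (0.83). *Larp4*, which protects tails, fell from 81.0 and 77.7 to 34.5 and 27.4 (log2 fold change -1.34, SE 0.16, adjusted p = 0.00122) and the deadenylase *Pan2* from 50.2 and 43.3 to 21.3 and 18.8 (log2 fold change -1.18, SE 0.16, adjusted p = 0.00188), neither called under the mitochondrial scaling. Decapping, uridylation and decay factors had 0 of 26 higher and 5 lower, with a median of -0.76 (0.28 under the mitochondrial scaling, where 0 were lower). The falls were the decapping enzyme *Dcp2*, its activators *Dcp1a* and *Ddx6*, the AU-rich element binding protein *Khsrp* and the exonuclease *Xrn1*. *Dcp2* was at 55.1 and 58.4 in Btg4wt and 15.7 and 17.9 scaled TPM in Btg4tm libraries (log2 fold change -1.70, SE 0.15, adjusted p = 0.000444), and *Dcp1a* at 363 and 342 against 140 and 123 (log2 fold change -1.42, SE 0.12, adjusted p = 0.000444). *Khsrp* lost the call without replicate 1 of Btg4tm (-0.81) and *Xrn1* without replicate 1 of Btg4wt (-0.94), and the count was 8 without replicate 2 of Btg4tm. The RNA exosome had 2 of 19 higher and 1 lower.

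Factors that store maternal mRNAs or control their tails had 3 of 35 higher and 8 lower (median -0.47, or 0.60 under the mitochondrial scaling). *Zar1l*, of the ZAR family that organises stored mRNA, rose from 97.2 and 89.2 to 992 and 948 (log2 fold change 3.37, SE 0.11, adjusted p = 9.06e-05), while its relative *Zar1* was at 561 and 556 against 619 and 576 and was not called. The Y-box proteins *Ybx2*, the main mRNA-packaging protein of germ cells, and *Ybx3* rose by 1.93 and 1.31. *Cpeb1*, which drives cytoplasmic polyadenylation early in maturation, was at 159 and 134 against 273 and 256 (0.85, not called), and its paralog *Cpeb4*, which acts later, fell from 33.3 and 28.9 to 9.14 and 11.1 (log2 fold change -1.53, SE 0.18, adjusted p = 0.00120), a call lost under the mitochondrial scaling. *Sympk*, the scaffold of the polyadenylation machinery, fell from 20.1 and 20.2 to 2.15 and 3.41 (log2 fold change -2.51, SE 0.23, adjusted p = 0.000542) and kept its call there.

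**Figure D4:**
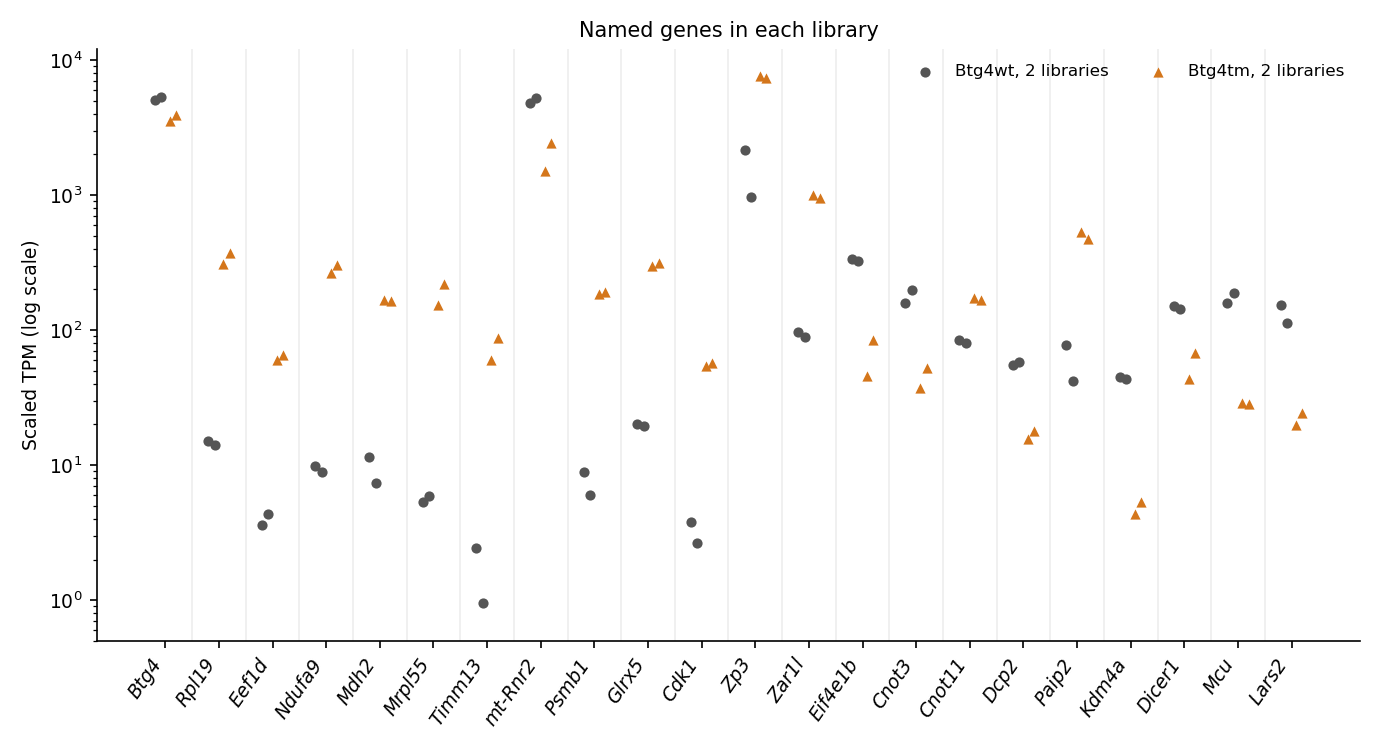
Scaled TPM (log scale) of 22 named genes in each of the 2 Btg4wt (grey circles) and 2 Btg4tm (orange triangles) libraries. For every gene shown both triangles lie on one side of both circles, above them for 13 genes such as Rpl19 and Ndufa9, and below them for 9, among them Cnot3, Dcp2, Kdm4a and Btg4, whose direction turns under the mitochondrial scaling.

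Among chromatin regulators the larger part was not called. Lysine demethylases and Polycomb proteins had 1 of 36 higher and 9 lower (25% against 8.50%), with a median of -0.61, which was 0.28 under the mitochondrial scaling, where 1 was lower. *Kdm4a*, a histone H3K9 and H3K36 demethylase, fell from 45.2 and 43.3 to 4.31 and 5.34 scaled TPM (log2 fold change -2.96, SE 0.17, adjusted p = 0.000148) and kept its call there (-1.96). *Kdm7a* fell from 60.6 and 63.0 to 17.8 and 17.5 (log2 fold change -1.75, SE 0.13, adjusted p = 0.000322) and *Ezh1*, a Polycomb methyltransferase, from 46.5 and 39.9 to 15.0 and 14.3 (log2 fold change -1.49, SE 0.16, adjusted p = 0.000828). The exception was *Riox2*, which rose from 16.6 and 11.7 to 35.9 and 32.5 (log2 fold change 1.23, SE 0.20, adjusted p = 0.00428), a call lost without replicate 2 of Btg4wt (1.0). Of 28 maternal chromatin and genome activation factors 7 fell and 2 rose (median -0.44, or 0.57 under the mitochondrial scaling). *Kmt2d*, an H3K4 methyltransferase, went from 98.7 and 96.6 to 25.3 and 30.3 (log2 fold change -1.78, SE 0.14, adjusted p = 0.000370), *Setdb1*, an H3K9 methyltransferase, from 116 and 105 to 39.5 and 36.9 and the 5-methylcytosine oxidase *Tet3* from 166 and 145 to 70.9 and 71.2, all without a call under the mitochondrial scaling. Zinc finger genes named Zfp had 21 of 264 higher and 29 lower (median -0.25). Histone genes had 7 of 27 higher (25.9%, near the 19.0% of all genes) and 0 lower. Of the rises 5 were among 15 replication-dependent core histones, whose median levels were low, 1.61 and 1.67 against 3.33 and 4.79 scaled TPM. The other 2 were the variants *H2ax*, from 30.2 and 39.3 to 229 and 227, and *H2az2*, from 11.1 and 9.12 to 107 and 127 (log2 fold change 3.41, SE 0.17, adjusted p = 0.000106). Most replication-dependent histone mRNAs lack a poly(A) tail, and oligo(dT) priming catches few of them.

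Genes particular to the oocyte were mixed. Of 12 zona pellucida and gamete interaction genes 5 rose and 2 fell (41.7% and 16.7%, against 19.0% and 8.50% of all genes, median 0.71). The rises were *Zp1*, *Zp2* and *Zp3*, which build the zona, *Cd9*, needed for sperm fusion, and *Izumo1r*, the sperm receptor JUNO. *Zp2* was at 767 and 357 in Btg4wt and 1571 and 1565 scaled TPM in Btg4tm libraries (log2 fold change 1.58, SE 0.33, adjusted p = 0.0105), and *Izumo1r* at 56.2 and 37.7 against 210 and 281 (log2 fold change 2.37, SE 0.23, adjusted p = 0.000673). Replicate 2 of Btg4wt was the lowest library for all 5, and without it *Zp1* lost its call (0.91). The falls were the secreted oocyte proteins *Oosp1*, from 6504 and 7485 to 2567 and 3938, and *Oosp3*, from 6187 and 5656 to 2319 and 3458. Both lost the call without replicate 1 of Btg4tm (-0.83 and -0.77), after quantile normalization (-0.86 and -0.83) and under the mitochondrial scaling (-0.038 and 0.033), and *Oosp3* also without replicate 1 of Btg4wt (-1.0). Of 20 genes of the subcortical maternal complex and the oocyte Nlrp family 2 rose and 3 fell. *Zbed3*, a very abundant RNA, fell from 21648 and 20880 to 7771 and 10090 (log2 fold change -1.26, SE 0.17, adjusted p = 0.00185) and *Tle6* of the subcortical complex rose from 414 and 384 to 1232 and 977 (log2 fold change 1.46, SE 0.15, adjusted p = 0.000722). The fall of *Zbed3* was not called under the mitochondrial scaling. Among growth and transcription factors of the oocyte, the basic helix-loop-helix factor *Figla* rose from 11.6 and 11.1 to 83.4 and 84.7 (log2 fold change 2.78, SE 0.14, adjusted p = 0.000104) and *Fgf8* from 19.6 and 23.6 to 221 and 242 (log2 fold change 3.37, SE 0.14, adjusted p = 9.06e-05), whereas the receptor *Kit* fell from 144 and 143 to 46.0 and 53.6 (log2 fold change -1.51, SE 0.13, adjusted p = 0.000464), a fall not called under the mitochondrial scaling. *Gdf9* was at 6226 and 6143 against 8669 and 7191 and was not called.

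The meiotic cell cycle showed few calls for its abundant drivers. Cyclin B, CDK1 and their regulators had 2 of 27 higher and 2 lower (median 0.06). *Cdk1* itself rose from 3.76 and 2.66 to 53.8 and 57.4 scaled TPM (log2 fold change 3.76, SE 0.20, adjusted p = 0.000124), and *Ccnh*, of the CDK-activating kinase, from 27.0 and 21.2 to 80.5 and 82.5 (log2 fold change 1.73, SE 0.16, adjusted p = 0.000550). *Ccnb1*, the main cyclin B, was at 2802 and 2597 against 2140 and 1889, a log2 fold change of -0.42 that did not pass and was 0.67 under the mitochondrial scaling, and *Ccnb3* fell from 58.0 and 59.3 to 18.1 and 22.9 (log2 fold change -1.48, SE 0.16, adjusted p = 0.000998). In the MOS and cAMP pathway 2 of 20 rose and 2 fell, and *Marf1*, a regulator of meiosis and of retrotransposons, fell from 70.6 and 65.3 to 16.7 and 20.8 (log2 fold change -1.81, SE 0.16, adjusted p = 0.000499). Neither fall was called under the mitochondrial scaling. Spindle checkpoint, Aurora and cohesin genes had 4 of 40 higher and 3 lower (median -0.49, or 0.52 under the mitochondrial scaling). The rises included the kinetochore proteins *Zwint*, from 10.5 and 10.2 to 63.8 and 63.4 (log2 fold change 2.51, SE 0.14, adjusted p = 0.000134), and *Spc24*, from 26.2 and 22.0 to 115 and 144 (log2 fold change 2.37, SE 0.17, adjusted p = 0.000250).

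Tubulins, tubulin folding cofactors and dynein had 17 of 42 higher and 0 lower (40.5%, median 0.57, and 0.39 to 1.64 under the other scalings). *Tubb4b* was at 85.0 and 78.6 in Btg4wt and 625 and 604 scaled TPM in Btg4tm libraries (log2 fold change 2.90, SE 0.11, adjusted p = 9.06e-05). Dynein light chains rose in 6 of 7 cases (median 1.60), and the heavy and intermediate chains with dynactin in 2 of 12 (median 0.20). *Dynlrb1* went from 54.6 and 50.5 to 374 and 444 (log2 fold change 2.93, SE 0.14, adjusted p = 9.76e-05). Kinesins, motors of which most walk toward the plus ends of microtubules, had 3 of 28 higher and 4 lower (median -0.55, or 0.43 under the mitochondrial scaling). *Kif14* fell from 68.2 and 66.4 to 18.3 and 17.6 (log2 fold change -1.85, SE 0.13, adjusted p = 0.000265), a call lost under the mitochondrial scaling, and *Kif17* rose from 45.3 and 38.3 to 144 and 163 (log2 fold change 1.86, SE 0.14, adjusted p = 0.000329). Of 89 chaperones 23 were higher and 6 lower (25.8% and 6.74%, near the 19.0% and 8.50% of all genes), with 4 of 8 subunits of the CCT chaperonin, which folds actin and tubulin, among the rises. Heat shock proteins had 1 of 18.

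Several large assemblies held rises and falls side by side, and there the falls were in longer transcripts. The spliceosome had 14 of 72 members higher (19.4%, near the 19.0% of all genes) and 12 lower (16.7% against 8.50%). The median transcript length was 1263.5 bases for the higher and 4211 for the lower ones. Of 27 Sm, LSm and other small nuclear RNP proteins 9 were higher, 2 lower and 16 not called (median 0.26). The largest rise was that of *Snrpd2* of the Sm ring, from 2.72 and 1.32 to 108 and 124 scaled TPM (log2 fold change 5.31, SE 0.25, adjusted p = 0.000101). Of 22 SF3 and PRP splicing proteins 2 were higher, 7 lower and 13 not called (median -0.71). Among the lower ones were *Prpf8*, the largest protein of the catalytic core, which went from 58.1 and 60.2 to 22.9 and 28.0 (log2 fold change -1.19, SE 0.15, adjusted p = 0.00169), and *Prpf6*, from 163 and 170 to 73.1 and 72.7 (log2 fold change -1.18, SE 0.11, adjusted p = 0.000666). RNA polymerases had 10 of 31 higher and 3 lower (32.3% and 9.68%, against 19.0% and 8.50% of all genes). The small RNA polymerase II subunits *Polr2i* and *Polr2k* each rose by 3.75, and *Polr2b*, its second largest subunit, fell from 106 and 99.6 to 46.8 and 49.0 (log2 fold change -1.09, SE 0.12, adjusted p = 0.00111). Nuclear pore and transport genes had 4 of 52 higher and 7 lower (7.69% and 13.5%, against the same shares). The pore proteins *Nup214* and *Nup160* fell, the former from 94.1 and 79.1 to 25.6 and 33.3 (log2 fold change -1.53, SE 0.18, adjusted p = 0.00119), and *Ranbp1*, a small partner of the GTPase Ran, rose from 10.8 and 7.08 to 63.2 and 60.9 (log2 fold change 2.69, SE 0.21, adjusted p = 0.000347). The falls of *Prpf8*, *Prpf6*, *Polr2b*, *Nup214* and *Nup160* lost their calls under the mitochondrial scaling. In the small RNA pathway *Dicer1*, which makes small interfering RNAs in oocytes, fell from 150 and 144 to 43.2 and 68.0 (log2 fold change -1.42, SE 0.22, adjusted p = 0.00333), also without a call there, and its partner *Tarbp2* rose from 4.82 and 3.74 to 31.3 and 30.5 (log2 fold change 2.60, SE 0.19, adjusted p = 0.000261). In 34 of the 35 lists with at least 2 members called each way the lower members had the longer median transcript.

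Transcript length moved with the comparison over all protein-coding genes. Called higher were 44.7% of the shortest quintile (171 to 1654 bases), 24.8%, 13.7% and 7.13% of the next ones, and 3.54% of the longest quintile (4974 bases and over). Called lower were 1.77%, 2.05%, 5.12%, 12.1% and 24.2%, in the same order. The median log2 fold change ran from 0.82 in the shortest to -0.62 in the longest quintile, and the median transcript had 1710 bases among higher, 5180.5 among lower and 3136.5 among uncalled genes. Exons followed, with a median of 6 in higher and 16 in lower genes. By mean level the share of higher calls did not run one way, as 15.8% of genes with a mean under 10, 22.7% with 10 to 100, 20.9% with 100 to 1000 and 10% with over 1000 scaled TPM were higher.

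**Figure D5:**
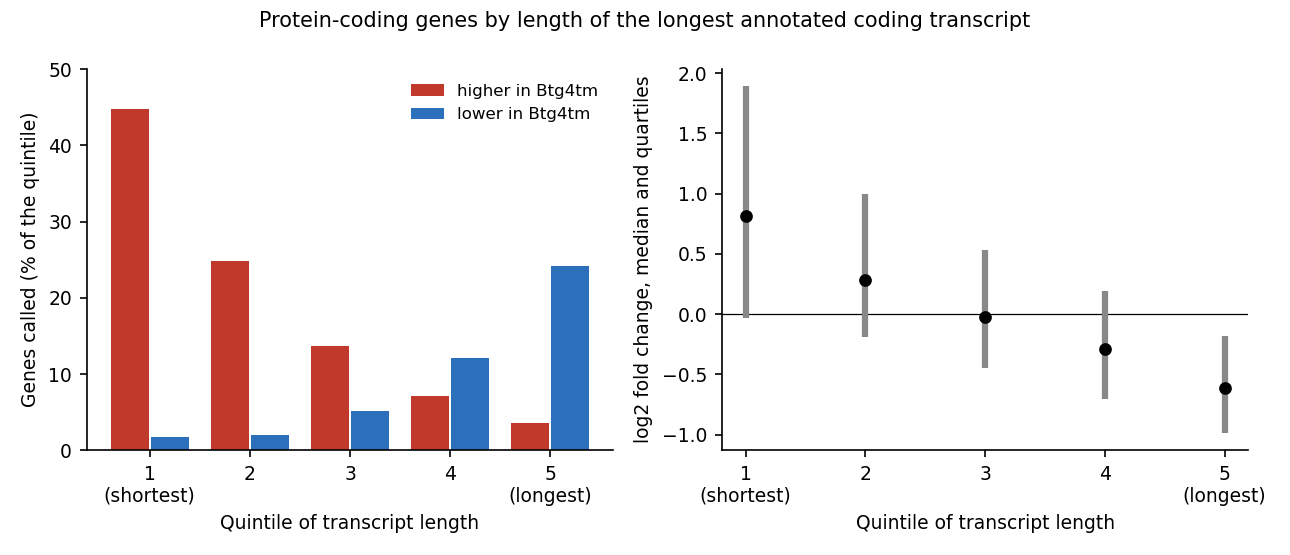
Protein-coding genes in quintiles of the length of their longest annotated coding transcript, with the share of each quintile called higher (red) and lower (blue) on the left, and the median and quartiles of the log2 fold change on the right. Higher calls go from 44.7% in the shortest to 3.54% in the longest quintile and lower calls from 1.77% to 24.2%.

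Several of the lists named above were set beside coding genes of their own length, by taking from each member's log2 fold change the median of the coding genes in its length quintile. The median of these differences was 1.67 for the cytosolic ribosomal proteins, 1.43 for the nuclear-encoded respiratory subunits, 1.17 for the mitochondrial ribosomal proteins and 0.90 for import, less in each case than the medians of 2.28, 2.09, 1.59 and 1.35 without it. It was 0.72 for the antioxidant enzymes, 0.46 for the proteasome and 0.25 for the tubulin and dynein genes. For the zona and gamete interaction genes it was 0.16, against a median of 0.71 without it. On the lower side it was -0.53 for decapping and decay factors, -0.33 for ubiquitin-specific proteases, -0.32 for lysine demethylases with Polycomb proteins and -0.053 for kinesins. These are values side by side, and the part of length in the result was not tested.

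The ends of the annotated 3′ UTRs also differed between higher and lower genes. The sense-strand letters TTTTAT, a cytoplasmic polyadenylation element, stood in the last 150 bases of 10.1% of the 1597 higher, 24.4% of the 926 lower and 22.0% of the 7257 uncalled coding genes with a UTR of at least that length, and in 20.3% of all 9780. In the shortest quintile of UTR lengths the shares were 8.03%, 32.8% and 20.6%, and in the longest quintile 17.2%, 26.4% and 22.7%. The variant TTTTAAT stood in 3.69% of higher and 9.50% of lower genes, the Pumilio motif TGTANATA in 4.57% and 10.6%, and the AU-rich element TATTTAT in 4.51% and 9.29%. These motifs can overlap one another. The windows of higher genes held less A and T (median 57.3%, against 65.3% in lower genes and 62.7% in all), so the share of any AU-rich word moves with base composition, and its part was not tested. A match is a set of letters and not a site shown to be used.

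Over all genes, the largest rises among genes averaging 20 scaled TPM or more were led by the processed pseudogene *Gm7525*, from 4.45 and 8.66 to 533 and 687 (log2 fold change 6.39, SE 0.29, adjusted p = 9.06e-05), and by *Yif1a*, a protein of ER to Golgi transport, from 0.641 and 0.631 to 81.5 and 97.7 (log2 fold change 5.79, SE 0.18, adjusted p = 8.39e-05). *Yif1a* was under 1 TPM in both Btg4wt libraries and passed the filter only through the Btg4tm libraries. It was therefore bound to differ, and its p-value is no support for the rise. *Emg1* and *Fcf1*, both factors of small ribosomal subunit assembly, went from 4.36 and 3.88 to 155 and 173 (log2 fold change 5.01, SE 0.15, adjusted p = 8.39e-05) and from 19.2 and 18.2 to 605 and 738 (log2 fold change 5.09, SE 0.14, adjusted p = 8.39e-05). A pseudogene can take reads of its parent gene, so the value of *Gm7525* is uncertain. The largest fall was that of *AC132945.1*, a gene name without an entry in the annotation used here. It was at 69.5 and 75.6 in Btg4wt libraries and listed at 0 and 1.52 in Btg4tm libraries. Among the other large falls were *Sh3bp2*, an adaptor of tyrosine kinase signalling, from 64.7 and 87.5 to 7.59 and 14.4 (log2 fold change -2.73, SE 0.30, adjusted p = 0.00104), and *Tiam1*, an exchange factor for the GTPase Rac, from 76.5 and 74.0 to 10.8 and 15.3 (log2 fold change -2.46, SE 0.19, adjusted p = 0.000326). Among the most abundant changed genes, *Ftdc1*, a ferritin-domain gene, rose from 701 and 609 to 4254 and 5842 (log2 fold change 2.93, SE 0.18, adjusted p = 0.000164), and the ribosomal RNA gene *CT010467.1* fell from 13535 and 13712 to 2363 and 5298 (log2 fold change -1.94, SE 0.35, adjusted p = 0.00625), with the Btg4tm libraries apart from each other as well and no call under the mitochondrial scaling. Ribosomal RNA has no poly(A) tail and exists in many copies, so this value depends on priming and mapping.

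By gene class, 2015 of 10727 protein-coding genes were higher and 970 lower (18.8% and 9.04%), and 322 and 72 of 1459 long non-coding RNAs (22.1% and 4.93%). Pseudogenes had 17.2% and 6.40% of 890. Of the 486 genes that the tables of uninjected oocytes do not list, 130 passed the filter, of which 49 were higher and 9 lower, and 607 of all genes tested reached the filter only through the Btg4tm libraries against 277 only through the Btg4wt libraries. A gene that passes in this way is bound to differ, so no share of the 130 is read. The shares by gene class above include such genes. The most abundant rises among the genes that those tables do not list were the processed pseudogenes *Gm3788*, from 1.98 and 5.26 to 45.5 and 68.7 scaled TPM, and *Gm7825*, from 4.21 and 1.15 to 46.6 and 44.2, which can hold reads of their parent genes. The count of 9 was 19 without replicate 2 of Btg4tm.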

How the data were processed

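Smart-seq2 libraries of pooled mouse MII oocytes were analysed, 2 injected with Btg4wt and 2 with Btg4tm RNA, grouped by their treatment labels. The authors trimmed reads with Trim Galore (0.6.10), mapped them to GRCm38 with HISAT2 (2.2.0), counted exon reads of primary alignments with a mapping quality of at least 10 with featureCounts (2.0.6) without strand, and deposited TPM per gene symbol. The tables hold no read counts, so count tests, which the study used, could not be run, and the gene lengths behind the TPM are not given in the sources used here. Without strand, a gene and an overlapping or antisense partner cannot be told apart.

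TPM were scaled by median-of-ratios factors (0.983 to 1.04), and log2(scaled TPM + 1) was fitted with limma (3.58.1, R 4.3.3), trend on the mean, over 13318 genes that reached 1 TPM in 2 or more libraries, with Benjamini-Hochberg adjustment. The fit rests on 2 residual and 4.09 prior degrees of freedom. On simulated data for this comparison, with 13318 genes, 200 of 200 genes changed by 2 or 3 on the log2 scale were called, and 13 unchanged ones. The changed genes were drawn above about 10 scaled TPM, with normal noise of the model's own fitted spread. Changes closer to the threshold, in the 6608 genes averaging under 10, or in as many genes as the 3663 called were not simulated. Recovery in the data themselves was therefore not tested. Alternatives were other scalings (TPM as deposited, quantile, summed mitochondrially encoded RNAs), a pseudocount of 0.1, no filter or a filter at 5 TPM, no trend, the spread of all 8 libraries, a replicate block, other call thresholds, and leaving out each library.

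Gene models came from GENCODE M21 (GRCm38); 16085 symbols matched directly and 178 through older symbols. Transcript length is that of the longest annotated coding transcript. The comparison, the 54 function lists and the tests were chosen with earlier results of these data known. The 62 sublists and some named members were chosen after their values were seen, among them the abundant genes given as uncalled. Otherwise genes were named by rule: per list the called member of highest mean, the one of largest change averaging 10 scaled TPM or more and the most abundant called the other way; over all genes the largest changes averaging 20 or more and the most abundant called genes; and the most abundant called genes absent from the tables of uninjected oocytes. Only part of these is given. Near-identical gene copies share reads and are uncertain.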

Additional observations from a re-analysis of the deposited data

How the results depend on the processing

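The scaling between libraries decided most of what moved. With the summed mitochondrially encoded RNAs as reference, 6064 genes were higher and 86 lower, and Btg4 turned to 0.63. Genes absent from the control tables were then higher in 83 cases. The members called higher were 25 for mitochondrial import, 35 for the proteasome, 13 for elongation factors, 8 for zona genes, 29 for tubulin and dynein, 21 for pyruvate use and the TCA cycle, and 21 for antioxidant enzymes. The members called lower were 5 for mitochondrially encoded RNAs, 1 for lysine demethylases and Polycomb proteins, and 0 for ubiquitin-specific proteases, poly(A)-binding proteins, decay factors and kinesins. The single genes that changed sign were Med31 (0.036), Ttc37 (0.033), Dnmt1 (0.066), Mastl (0.089), Actr2 (0.033), Serpine2 (0.72), Cyp19a1 (0.80), Nr5a2 (0.13), Pecam1 (0.51), Oosp3 (0.033), Rps27l (0.36), Cox8a (0.17), Atp5b (0.92), mt-Co1 (0.10), mt-Cytb (0.44), Prdx1 (0.40), Cnot7 (0.65) and Ccnb1 (0.67). With quantile normalization 1811 genes were lower, with 20 ubiquitin-specific proteases, 10 decay factors, 16 demethylases and Polycomb proteins and 7 kinesins lower and 4 TCA genes higher. Without a minimum fold change 2909 genes were lower. A filter at 5 TPM left 14 higher and 4 lower genes absent from the control tables. Leaving out 1 library gave 2395 to 2556 higher and 1076 to 1400 lower genes, 7 to 19 absent genes lower, 6 to 16 mitochondrially encoded RNAs lower, 5 to 8 elongation factors higher and 4 to 8 decay factors lower. Deviations of the libraries with the same replicate number correlated across genes at 0.056. With 2 libraries per group this cannot tell whether they shared an injection or mice. The fit with the replicate block gave 2566 higher and 1154 lower genes. Of the 275 values of counts and of Btg4 under alternatives, 245 stayed within 1.5 times or on the same side. For single genes 3090 of 3242 values kept direction and side of the threshold. The depth is unknown from TPM, and the cause of these shifts was not tested.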
